A study of Mus musculus with 6 samples.

Results

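The 9 genes described here were Hdac1, Hdac2, Hdac3, Hdac4, Hdac5, Hdac7 and Hdac9, which encode histone deacetylases, Ncor1, which encodes a corepressor scaffold, and Kdm6b, which encodes a histone demethylase. Their peaks were those whose nearest transcription start site, as the authors annotated it, belonged to 1 of the 9 genes. These were 158 of the 134964 peaks in 6 lists from chromatin immunoprecipitation sequencing (ChIP-seq). The lists came from BMDMs, that is, bone marrow-derived macrophages of wild-type mice aged 8 to 12 weeks. Marrow cells had been grown for 6 days in L929 supernatant, a source of macrophage colony-stimulating factor. Cells were left without IL-4 or received IL-4 at 20 ng/ml for 1 h, and C/EBPα, IRF8 or JUNB was precipitated from each. Each factor and condition had 1 sample, so no value below has a replicate and no test between conditions was possible. Whether cells of several mice were pooled was not given in the labels.

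Histone deacetylases remove acetyl groups from histones and are mostly linked to repressed transcription. HDAC1, HDAC2 and HDAC3 belong to class I and are nuclear enzymes that work inside large corepressor complexes, and HDAC3 needs a scaffold such as NCOR1 for its activity. HDAC4, HDAC5, HDAC7 and HDAC9 form class IIa, which have little enzymatic activity of their own and bring the NCOR-HDAC3 complex to factors such as MEF2. KDM6B works on another mark and removes methyl groups from lysine 27 of histone H3, so it is not a corepressor. In macrophages HDAC3 is known as a brake on alternative activation by IL-4, which acts through the transcription factor STAT6. The comparison asks where 3 factors that occupy macrophage enhancers, C/EBPα, IRF8 and the AP-1 subunit JUNB, were bound around the genes of this machinery, and how the peaks differed soon after IL-4.

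The deposited peak score had no stated unit and a lowest value between 1.3 and 1.76 in the 6 lists, and read depth is unknown. Scores of different lists are therefore set side by side as deposited, and a difference between them is given beside the differences of all peaks of the same lists. Which of the 2 library kits named in the labels served which sample was also not given, so depth or kit and the effect of IL-4 cannot be told apart. Of 8 macrophage marker genes, 6 had peaks in the control C/EBPα and IRF8 lists, with 10 and 9 at Csf1r, while Spi1 and Adgre1 were nearest to 0 peaks in all 6 lists. Among marker genes of other cell types, Cd3e and Ly6g were at 0 in all 6 lists, and Siglech had 2 in each IRF8 list and 1 in each JUNB list. The part of other cells in the results was not tested. A peak is given to the nearest start site, which is not evidence that it acts on that gene.

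The peaks were spread very unevenly over the 9 genes. The 4 class IIa genes had 136 of the 158 peaks, the 3 class I genes had 4, and Ncor1 and Kdm6b had 18 together. These counts are not adjusted for gene length. Hdac9 alone had 69 peaks and Hdac4 had 47, so this pair held 73.4% of them. Hdac3 had 0 peaks in every list, Hdac2 had 1, and Hdac1 and Ncor1 had 3 each. The 9 genes drew 37 of 24486 C/EBPα peaks in control, a share of 0.151% (exact 95% binomial interval 0.106% to 0.208%, counting error only), and 31 of 24612 after IL-4, or 0.126% (0.0856% to 0.179%). They drew 40 of 37525 IRF8 peaks in control, or 0.107% (0.0762% to 0.145%), and 47 of 42076 after IL-4, or 0.112% (0.0821% to 0.149%). These intervals hold no variation between samples, so they were not used to compare control with IL-4. JUNB had 2 of 3940 peaks in control and 1 of 2325 after IL-4 at these genes.

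**Figure D1:**
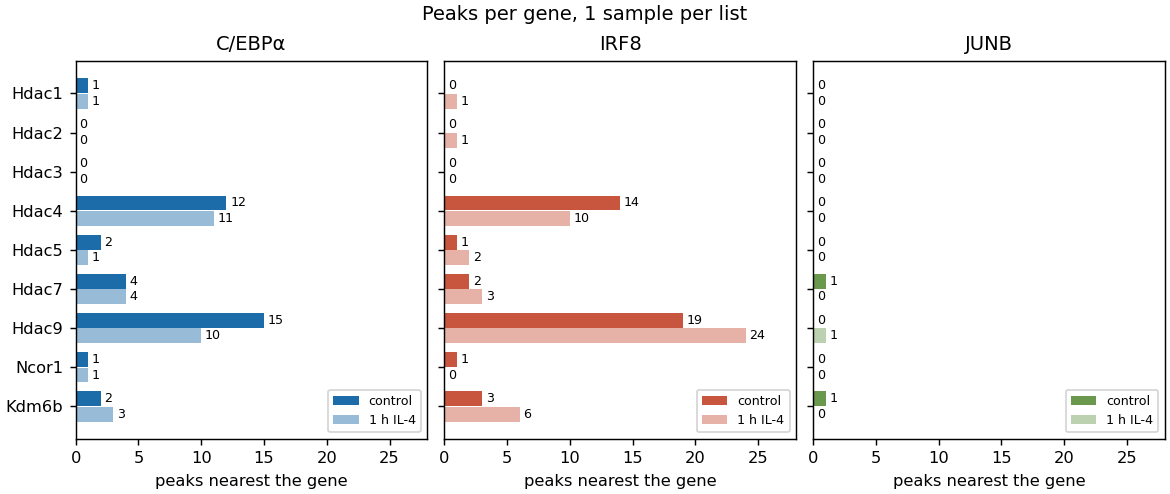
Number of peaks nearest to each of the 9 genes (x axis) in the C/EBPα, IRF8 and JUNB lists, with the control sample in dark bars and the sample after 1 h of IL-4 in pale bars, 1 sample each. Hdac9 (10 to 24 peaks for C/EBPα and IRF8) and Hdac4 (10 to 14) stand apart from the other genes, and Hdac3 has 0 peaks in every list.

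Merging the peaks of all 6 lists where they touched gave 71 regions at the 9 genes. Of these, 33 were at Hdac9, 18 at Hdac4, 6 each at Hdac7 and Kdm6b, 3 at Hdac5, 2 each at Hdac1 and Ncor1, and 1 at Hdac2. The genes differ greatly in length. Hdac9 (chr12:34047580-34917095, minus strand, mm10 as in all coordinates here) spans 870 kb and Hdac4 (chr1:91928779-92195699, minus strand) 267 kb in the GENCODE annotation. Counted over the gene body whatever the nearest start site, Hdac9 had 1.84 C/EBPα and 2.53 IRF8 peaks per 100 kb in control, and Hdac4 had 4.12 of each. Over 2489 protein-coding genes of at least 100 kb the medians were 0.560 for C/EBPα and 1.08 for IRF8. Hdac4 in control was as dense as or denser than most long genes, since 8.96% of them had as many C/EBPα peaks per length and 16.8% as many IRF8 peaks. For Hdac9 these shares were 26.8% and 30.4%. Ncor1, which spans 142 kb, had 0.704 peaks of each factor per 100 kb, a density that 46.8% of long genes matched for C/EBPα and 59.9% for IRF8. After IL-4 Hdac4 had 3.75 C/EBPα and 2.62 IRF8 peaks per 100 kb, which 10.4% and 32.7% of long genes matched, and Hdac9 had 1.27 and 3.11, which 33.4% and 26.6% matched. The order of Hdac4 and Hdac9 for IRF8 was thus the opposite after IL-4.

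The class I genes had few peaks, and they are short, at 26.6 kb (Hdac1), 27.3 kb (Hdac2) and 19.2 kb (Hdac3). The densities above cover genes of at least 100 kb only, so these counts were not set against genes of like length. Hdac1 had 1 C/EBPα peak in its promoter (chr4:129542937-129543284), with a score of 16.09 in control and 19.48 after IL-4, at the 63.2 and 68.5 percentile of the respective lists. IRF8 had 1 low peak in the first intron of Hdac1, with a score of 4.99, that was present after IL-4 only. Hdac2 had 1 IRF8 peak, present after IL-4 only with a score of 4.59, inside its first intron 660 bp from the start site and on a CpG island. Both IL-4-only peaks lay in the lower part of their list, at the 23.2 and 17 percentile. For Hdac3 no peak of any list lay in the gene body. Within 10000 bp of its body there were C/EBPα peaks (2 in control, 1 with IL-4) and IRF8 peaks (2 in either list), all of them nearest to Diap1 in the files.
The promoter peak of Hdac1 is shown because it is the only member peak of C/EBPα at a class I gene, and its central 200 bp hold 1 C/EBP match (TTGCNNAA, in either direction) and 1 ETS-IRF composite match (GGAA, 2 free bases, GAAA), both in capitals, on the plus strand of GRCm38:
Hdac1 promoter, chr4:129543022-129543221: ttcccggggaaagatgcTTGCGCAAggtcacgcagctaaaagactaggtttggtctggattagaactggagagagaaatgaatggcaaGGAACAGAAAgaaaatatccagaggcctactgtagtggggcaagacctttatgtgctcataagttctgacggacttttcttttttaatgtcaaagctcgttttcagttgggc

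Hdac4 carried high peaks of both factors, within its introns and upstream. The C/EBPα peak with the highest score at any of the 9 genes lay in an Hdac4 intron (region chr1:92034273-92034842, 161 kb into the gene from its GENCODE 5′ end). C/EBPα scored 74.43 there in control and 58.82 after IL-4, while IRF8 scored 65.75 and 50.92. Both factors thus had lower scores there after IL-4, with log2 ratios of -0.34 and -0.37, which were the 20.9 and 17.7 percentile of the ratios of all shared peaks with a like control score. The IRF8 peak with the highest score lay upstream of Hdac4 (chr1:92250854-92251213, at -55.3 kb from the GENCODE 5′ end and -102652 bp from the start site the authors used). It scored 120.75 in control and 128.83 after IL-4 and had no C/EBPα peak in either list. The strongest C/EBPα binding and the strongest IRF8 binding at Hdac4 were thus at different places.
Both are shown on the plus strand of GRCm38 as 200 bp around the control peak centre, and capitals mark the only match to any of the 5 motifs searched, an ETS-IRF composite in the IRF8 peak:
Hdac4 intron, C/EBPα, chr1:92034422-92034621: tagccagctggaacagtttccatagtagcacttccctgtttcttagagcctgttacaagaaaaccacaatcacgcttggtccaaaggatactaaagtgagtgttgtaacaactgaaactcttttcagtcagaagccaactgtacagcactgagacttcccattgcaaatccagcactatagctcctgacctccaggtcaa
Hdac4 upstream, IRF8, chr1:92250946-92251145: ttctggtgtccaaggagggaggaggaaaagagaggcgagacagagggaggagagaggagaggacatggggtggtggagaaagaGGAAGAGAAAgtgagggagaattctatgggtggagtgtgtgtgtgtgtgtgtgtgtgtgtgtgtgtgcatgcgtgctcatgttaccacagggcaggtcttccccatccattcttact

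Around the 2 leading regions, Hdac4 had a run of C/EBPα peaks between 109 kb and 161 kb into the gene. One intronic peak (chr1:92061756-92062111) had C/EBPα scores of 46.18 in control and 42.23 after IL-4 beside IRF8 scores of only 4.44 and 8.12. Upstream, at -21.0 kb, a broad region (chr1:92216207-92217164) held highest C/EBPα scores of 44.13 and 33.1 and highest IRF8 scores of 24.27 and 23.3. Of the 10 C/EBPα peaks shared by both conditions at Hdac4, 8 had a lower score after IL-4, with a median log2 ratio of -0.25, against -0.0038 over all 19111 shared C/EBPα peaks. Of all those peaks, 49.7% had a higher score. Peaks of like control score had medians from -0.21 (around a score of 14.09) to 0.05 (around 7.93). The ratios of the Hdac4 pairs ranged from the 3 to the 97.5 percentile of like peaks.

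A close pair of Hdac4 regions differed in direction. The intronic C/EBPα peak at chr1:92036170-92036410 scored 8 in control and 24.82 after IL-4, a 3.10-fold difference that was higher than 97.5% of the ratios of peaks with a like control score. The C/EBPα peak next to it towards the 5′ end (chr1:92048445-92048759) scored 23.63 in control and 9.24 after IL-4, which put its ratio at the 3 percentile. A further intronic peak (chr1:92086937-92087276) scored 22.57 and 11.49. Both of the latter carried a low IRF8 peak in control, of 4.24 and 2.94, that was absent from the IL-4 list.

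The C/EBPα list lost 2 of 12 peaks at Hdac4 and gained 0 of 11, where 21.4% of the whole control list were lost and 22.0% of the whole IL-4 list gained. A peak is called lost here when a control peak overlapped no IL-4 peak of the same factor by at least 1 bp, and gained in the opposite case. The lost peak at chr1:92225237-92225586, at -29.7 kb, had a score of 17.99, the 66.8 percentile of the control list, and IRF8 had a peak of 6.04 there after IL-4 only. It was the C/EBPα loss with the highest score at the 9 genes, and its 200 bp are shown for that reason, with no match to any of the 5 motifs:
Hdac4 upstream, C/EBPα lost, chr1:92225312-92225511: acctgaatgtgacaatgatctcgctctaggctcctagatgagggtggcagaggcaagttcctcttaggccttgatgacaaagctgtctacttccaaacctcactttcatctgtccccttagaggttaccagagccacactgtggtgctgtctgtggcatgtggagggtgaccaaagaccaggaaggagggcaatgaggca
IRF8 had 14 peaks at Hdac4 in control and 10 after IL-4, with 6 lost and 2 gained. Over the whole IRF8 lists 21.4% were lost and 30.4% gained. The 6 lost peaks were low, with scores from 2.94 to 6.11. The 8 shared IRF8 peaks had a median log2 ratio of -0.04, against 0.08 over all 29110 shared IRF8 peaks. Of the 8, 3 were higher after IL-4, against 55.4% of all shared IRF8 pairs. In addition, at the 3′ end of Hdac4 a site inside the gene body was nearest to Twist2 in the files and so was not counted. It had IRF8 scores of 26.5 and 18.5 and JUNB scores of 6.73 and 4.85, in control and after IL-4.

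**Figure D2:**
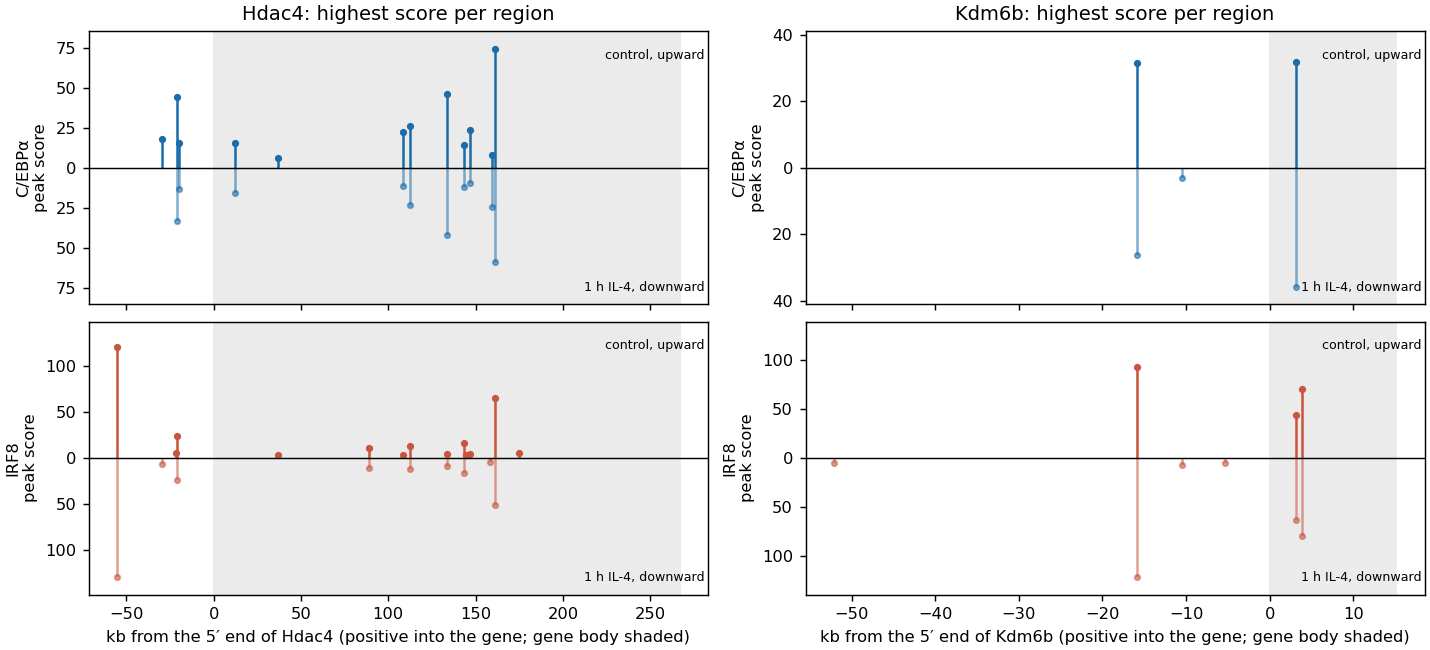
Highest peak score per region (y axis, score as deposited, control upward and 1 h IL-4 downward) against the distance in kb from the GENCODE 5′ end of Hdac4 (left) and Kdm6b (right), for C/EBPα (top) and IRF8 (bottom). At Hdac4 the highest C/EBPα score (74.43 in control) lies inside the gene and the highest IRF8 score (120.75 in control) upstream of it. At Kdm6b IRF8 scores reach 120.95 upstream and 78.84 in the first intron, both after IL-4.

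Hdac9 held more peaks than any other of the 9 genes, and nearly all were intronic. By C/EBPα peaks it ranked 59th of 9327 genes in control (15 peaks) and 241st of 9319 after IL-4 (10 peaks). By IRF8 peaks it ranked 69th of 12167 in control (19 peaks) and 39th of 13302 after IL-4 (24 peaks). The highest scores came from IRF8 peaks at 2 sites. At chr12:34722951-34723695, 194 kb into the gene, IRF8 scored 99.03 in control and 98.25 after IL-4, while C/EBPα scored 16.03 and 38.69. The IRF8 values were nearly equal, and the C/EBPα value was 2.41 times higher after IL-4, above 97.3% of the ratios of peaks with a like control score. At chr12:34498975-34499682, 418 kb into the gene, IRF8 scored 69.69 and 85.71, and C/EBPα had a peak after IL-4 only, with a score of 10.76.
The sequences of these sites are shown because each holds a STAT6-type match (TTC and GAA, separated by 4 bases), and the first also holds an ETS-IRF composite on the minus strand next to it. The first is centred on the control IRF8 peak and the second on the gained C/EBPα peak:
Hdac9 intron, IRF8, chr12:34723274-34723473: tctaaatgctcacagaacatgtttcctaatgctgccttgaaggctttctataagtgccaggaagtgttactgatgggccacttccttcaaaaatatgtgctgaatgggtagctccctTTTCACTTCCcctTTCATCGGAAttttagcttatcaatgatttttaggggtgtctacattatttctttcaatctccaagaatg
Hdac9 intron, C/EBPα gained, chr12:34499387-34499586: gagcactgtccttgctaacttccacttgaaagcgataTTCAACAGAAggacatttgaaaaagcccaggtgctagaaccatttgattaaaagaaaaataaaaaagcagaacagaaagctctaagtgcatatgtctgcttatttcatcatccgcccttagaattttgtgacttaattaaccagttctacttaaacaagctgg

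The IRF8 peak with the largest ratio of IL-4 to control score at the 9 genes also lay in Hdac9. At chr12:34547154-34547504, 370 kb into the gene and on a LINE repeat, IRF8 scored 9.66 in control and 37.24 after IL-4, a 3.86-fold difference above 99.5% of the ratios of like peaks. No C/EBPα or JUNB peak was called there. The 200 bp around the IL-4 peak centre hold 1 STAT6-type match, which lies outside the 200 bp around the slightly shifted control centre:
Hdac9 intron, IRF8 after IL-4, chr12:34547245-34547444: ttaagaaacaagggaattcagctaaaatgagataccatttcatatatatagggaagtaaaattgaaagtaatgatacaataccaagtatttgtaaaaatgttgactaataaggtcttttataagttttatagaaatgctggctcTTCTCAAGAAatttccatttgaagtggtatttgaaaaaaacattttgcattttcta
Another IRF8 peak (chr12:34847337-34847715) scored 5.71 and 17.73, and 1 at chr12:34696692-34697205 went the other way, from 11.34 to 3.24. These were 3.11-fold higher and 0.286 times the control value. Changes of this size were thus seen in both directions within the gene.

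Over the whole series, 10821 regions had peaks of C/EBPα and IRF8 in both conditions. Of these, 20.2% scored higher after IL-4 for C/EBPα and lower for IRF8, and 23.7% the reverse. Of the 4 such regions at Hdac9, 3 had scores that differed in direction between the factors. They were the region at 194 kb, with its nearly equal IRF8 scores, a region at 133 kb with C/EBPα scores of 11.75 and 8.11 and IRF8 scores of 28.73 and 37.06, and a region at 109 kb. At the last of these, chr12:34808222-34808562, C/EBPα scored 10.59 in control and 22.66 after IL-4, and IRF8 scored 13.17 and 7.96. The C/EBPα score was 2.14 times higher, the 94.3 percentile of like peaks, and the IRF8 score was 0.604 times the control value, the 23.2 percentile. This is the only member region with the interferon response match (GAAA, 2 free bases, GAAA), which is shown here on the minus strand in capitals together with an AP-1 match (TGANTCA), in the 200 bp around the IL-4 C/EBPα centre:
Hdac9 intron, C/EBPα after IL-4, chr12:34808267-34808466: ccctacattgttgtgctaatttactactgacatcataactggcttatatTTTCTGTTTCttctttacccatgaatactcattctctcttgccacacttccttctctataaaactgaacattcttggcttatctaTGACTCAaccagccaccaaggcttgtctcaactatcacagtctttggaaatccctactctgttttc

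Taken over the whole gene, C/EBPα lost 6 of 15 peaks and gained 1 of 10 at Hdac9, and IRF8 lost 2 of 19 and gained 7 of 24. Over the whole lists, 21.4% of C/EBPα peaks were lost and 22.0% gained, and for IRF8 21.4% and 30.4%. The 6 lost C/EBPα peaks had scores from 2.8 to 5.72 and the 7 gained IRF8 peaks from 3.97 to 5.82, in the lower 27.8% of the IL-4 list. One gained IRF8 peak, with a score of 5.14, lay at an internal promoter of Hdac9 (chr12:34528844-34529513, -289 bp from the start site). The only JUNB peak of the 9 genes after IL-4 was also here, in an intron on an LTR repeat (chr12:34789055-34789345), with a score of 3.22, where IRF8 scored 5.89 and 4.98. The shared peaks had a median log2 ratio of 0.40 for C/EBPα (9 peaks) and 0.29 for IRF8 (17 peaks), beside -0.0038 and 0.08 over all shared peaks. The 9 C/EBPα pairs had control scores from 4.71 to 16.03. Over all shared C/EBPα peaks, the median was 0.41 around a control score of 5.01, -0.09 around 11.1 and -0.21 around 14.09. For IRF8 it was 0.41 around a control score of 5.53 and 0.04 around 10.23. Higher after IL-4 were 5 of 9 and 9 of 17 pairs at Hdac9, against 49.7% and 55.4% of all shared pairs. The 3′ part of the gene body held further peaks that the files gave to Twist1, among them an IRF8 peak with scores of 108.86 and 97.84, which sits with a C/EBPα peak of 36.03 and 32.28.

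**Figure D3:**
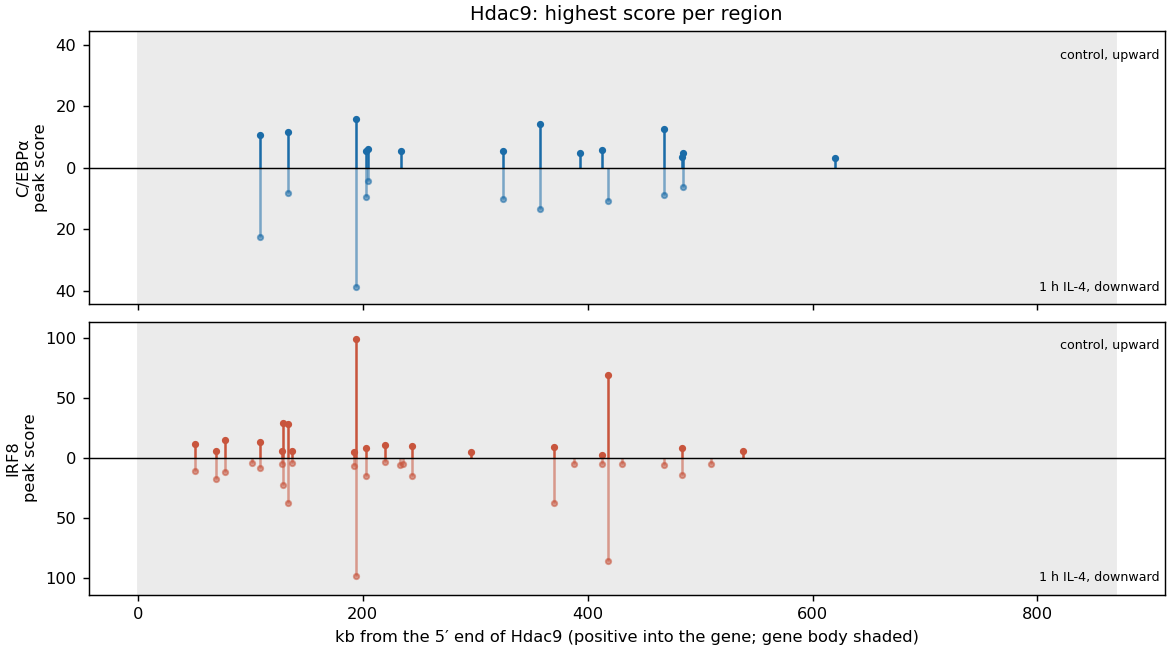
Highest peak score per region (y axis, score as deposited, control upward and 1 h IL-4 downward) against the distance in kb from the GENCODE 5′ end of Hdac9, for C/EBPα (top) and IRF8 (bottom), with the gene body shaded. IRF8 has tall peaks near 194 kb (99.03 in control) and 418 kb (69.69), and the tall IL-4 C/EBPα peak (38.69) lies at 194 kb.

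The other class IIa genes had few peaks. Hdac5 had a C/EBPα peak in its promoter (chr11:102230290-102230655, -292 bp from the start site in control), with scores of 20.89 in control and 28.18 after IL-4. IRF8 joined it after IL-4 only, with a score of 3.75. A second IRF8 peak in an Hdac5 intron scored 11.03 and 10.1, and a low intronic C/EBPα peak of 3.42 was lost. The highest IRF8 peak inside the Hdac5 body, with scores of 26.61 and 41.9, was nearest to G6pc3 in the files. The Hdac5 promoter window is shown as the counterpart of that of Hdac1, and it holds none of the 5 motifs:
Hdac5 promoter, chr11:102230365-102230564: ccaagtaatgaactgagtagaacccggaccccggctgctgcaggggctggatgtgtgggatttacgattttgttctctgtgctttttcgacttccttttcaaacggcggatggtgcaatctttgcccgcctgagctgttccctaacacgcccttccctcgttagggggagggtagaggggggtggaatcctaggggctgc
Hdac7 had its main region in its first intron (chr15:97824918-97825635), where all 3 factors had a control peak. C/EBPα scored 13.94 in control and 10.12 after IL-4, IRF8 scored 10.63 and 19.18, and JUNB scored 4.86 in control with no peak after IL-4. The IRF8 score was 1.80 times higher after IL-4, the 85.7 percentile of like peaks. Of the 14 peaks the files gave to Hdac7, 6 lay in introns of the neighbouring gene Vdr, which encodes the vitamin D receptor. These had scores from 3.02 to 7.39.

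Ncor1 had no high peak despite its length. A C/EBPα peak in an intron (chr11:62431411-62431869) scored 4.48 in control and 6.8 after IL-4, at the 9.7 and 28.3 percentile of the lists. An intronic IRF8 peak of 4.61 was lost. Peaks of the IL-4 lists at the 5′ end of the Ncor1 body were nearest to Pigl in the files, with scores of 5.1 for C/EBPα and 7.37 for IRF8. Neither of the 2 Ncor1 regions had a peak of both factors.

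Kdm6b had fewer but high peaks. IRF8 scored higher after IL-4 at all 3 shared ones, where 55.4% of all shared IRF8 pairs were higher. An upstream region (chr11:69429333-69429751, at -15.9 kb and within an intron of Dnah2) had IRF8 scores of 93.16 in control and 120.95 after IL-4 and C/EBPα scores of 31.59 and 26.26. In the first intron of Kdm6b, 1 region (chr11:69409494-69410027) was bound by IRF8 alone, with scores of 70.34 and 78.84. The next region (chr11:69410249-69410831), on a CpG island, had IRF8 scores of 44.24 and 63.5, C/EBPα scores of 31.79 and 35.64, and a JUNB score of 7.95 in control with no JUNB peak after IL-4. The log2 ratios of the 3 shared IRF8 peaks were 0.38, 0.16 and 0.52, in the order of these regions, which were the 86, 67.8 and 86 percentile of like peaks. None reached a 1.5-fold difference.
Over the whole IL-4 list of IRF8, 30.4% of peaks were gained. Near Kdm6b 3 of 6 were gained, with scores of 4.63, 6.74 and 4.99. That of 6.74, which had a gained C/EBPα peak of 3.08 beside it, was the highest IRF8 gain at the 9 genes. The windows show the upstream IRF8 site with an ETS-IRF composite and a STAT6-type match, the lost JUNB site with an AP-1 match, which is also the highest JUNB peak, and the gained IRF8 site with none of the 5 motifs:
Kdm6b upstream, IRF8 after IL-4, chr11:69429459-69429658: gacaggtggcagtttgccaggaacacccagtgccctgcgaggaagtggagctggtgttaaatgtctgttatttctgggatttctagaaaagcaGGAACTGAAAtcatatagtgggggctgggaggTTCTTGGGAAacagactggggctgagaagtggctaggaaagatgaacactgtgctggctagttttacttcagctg
Kdm6b intron, JUNB in control, chr11:69410463-69410662: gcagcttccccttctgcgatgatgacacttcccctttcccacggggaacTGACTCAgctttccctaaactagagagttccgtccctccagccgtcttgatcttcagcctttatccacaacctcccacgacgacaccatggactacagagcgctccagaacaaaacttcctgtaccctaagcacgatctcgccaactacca
Kdm6b upstream, IRF8 gained, chr11:69424036-69424235: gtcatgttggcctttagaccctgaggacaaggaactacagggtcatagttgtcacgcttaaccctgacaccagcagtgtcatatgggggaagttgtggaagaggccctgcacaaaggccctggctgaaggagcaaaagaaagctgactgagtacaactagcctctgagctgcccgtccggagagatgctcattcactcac

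Over the 9 genes together, C/EBPα lost 9 of 37 control peaks, or 24.3%, against a background of 21.4% over the whole control list. It gained 2 of 31 IL-4 peaks, or 6.45%, against 22.0% over the whole IL-4 list. The exact 95% binomial interval of the latter share was 0.791% to 21.4%, for counting error only and taking peaks of 1 gene as independent, and with a reciprocal overlap of 50% as the condition the count was 5. IRF8 lost 10 of 40 peaks, or 25.0%, against 21.4%, and gained 17 of 47, or 36.2%, against 30.4%. The intervals of the other 3 shares were 11.8% to 41.2%, 12.7% to 41.2% and 22.7% to 51.5%. None of these intervals is a test, because each group had 1 sample and most peaks lay at Hdac4 and Hdac9. JUNB lost both of its control peaks and its 1 IL-4 peak was gained, where 64.2% of all control peaks were lost and 39.2% of all IL-4 peaks were gained.

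Lost and gained peaks mostly had low scores. Of the 18 C/EBPα control peaks under the list median of 11.195, 8 were lost, and of the 19 at or above it 1 was lost, the upstream Hdac4 peak. The whole list gave 39.9% and 2.80%. All 10 lost IRF8 peaks were among the 20 under the median of 10.34, and 0 were among the 20 above it, where the whole list gave 39.6% and 3.28%. All 17 gained IRF8 peaks were among the 24 under the IL-4 median of 9.61, or 70.8%, where the whole list gave 54.2% under and 6.73% above the median. Both gained C/EBPα peaks, of 10.76 at Hdac9 and 3.08 at Kdm6b, were among the 15 under the IL-4 median of 11.22, and 0 were among the 16 at or above it, where the whole list gave 39.3% and 4.61%.

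Among peaks shared by both conditions, 6 of 28 C/EBPα pairs had a score at least 1.5 times higher after IL-4 and 4 a score at least 1.5 times lower. The background over all shared C/EBPα peaks was 17.7% higher and 17.8% lower. For IRF8, 7 of 30 pairs were higher and 3 lower, with a background of 23.6% and 17.5%. The median log2 ratio of the member pairs was -0.15 for C/EBPα, with 12 of 28 higher, and 0.13 for IRF8, with 16 of 30 higher, beside medians of -0.0038 and 0.08 over all shared peaks. Of all shared pairs, 49.7% were higher for C/EBPα and 55.4% for IRF8. Without Hdac4 the C/EBPα median was 0.22, so its sign rested on that gene. Taking peaks of like control score, 3 C/EBPα pairs lay above the 90th percentile and 4 below the 10th, and for IRF8 2 lay above and 2 below.

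**Figure D4:**
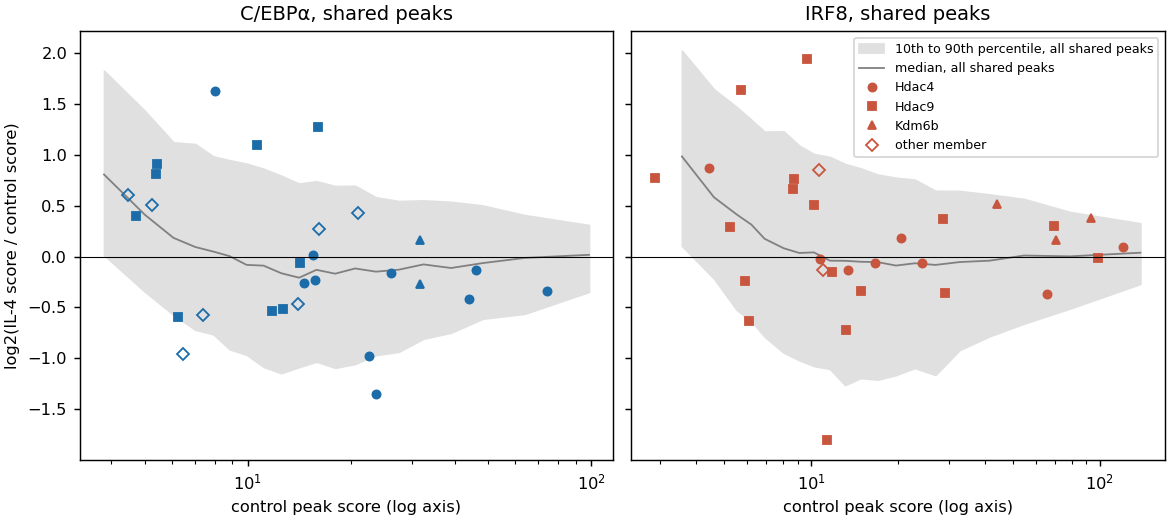
Log2 ratio of the IL-4 score to the control score (y axis) against the control score (x axis, log axis) for the 28 C/EBPα and 30 IRF8 peaks shared by both conditions at the 9 genes, with the 10th to 90th percentile band of all shared peaks in bins of like control score in grey. Most points lie inside the band, with Hdac4 and Hdac9 peaks on both sides of it.

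C/EBPα and IRF8 were found together at 23 of the 71 regions. Counting both conditions, 45.1% of member regions had IRF8 only, 21.1% C/EBPα only and 29.6% both without JUNB, where all 60847 regions of the series gave 49.7%, 17.3% and 25.1%. Of the C/EBPα peaks at the 9 genes, 45.9% paired with an IRF8 peak in control and 58.1% after IL-4, against 57.6% and 59.9% over the whole lists. Where they paired, the centres lay a median of 63 bp apart in control and 51 bp after IL-4, against 45 and 48 bp over all pairs. At the 12 regions where both factors had peaks in both conditions, the scores of both were higher after IL-4 at 2 and lower at 4, and the factors differed in direction at 6. Over the 10821 such regions of the series, 30.9% were higher for both and 25.1% lower for both. C/EBPα was higher and IRF8 lower at 20.2%, and the reverse held at 23.7%. All 3 JUNB peaks overlapped an IRF8 peak of the same condition, and the 2 in control also overlapped C/EBPα. Of all regions with JUNB in control, 2550 had all 3 factors, 646 IRF8 without C/EBPα, 306 C/EBPα without IRF8 and 413 neither. After IL-4 these counts were 1586, 338, 127 and 261. Overlap with IRF8 was thus the usual case for JUNB over the whole series.

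The peaks lay far from start sites and inside genes. Of the 158 peaks, 132 were intronic, 19 intergenic, 6 in promoters and 1 in an exon. The intronic share was 81.1% for C/EBPα and 85.0% for IRF8 in control, where the whole lists had 46.2% and 45.6%. The median distance to the start site was 67072 bp for C/EBPα and 82166 bp for IRF8 in control, against 20235 and 20951 bp over the lists. More than 100000 bp away lay 24.3% of the C/EBPα and 35.0% of the IRF8 control peaks, against 12.2% and 13.4%. Hdac9 and Hdac4, the longest of the 9 genes, held 60 of the 79 control peaks. The 6 promoter peaks were the C/EBPα peaks of Hdac1 and Hdac5 in both conditions and the gained IRF8 peaks of Hdac5 and Hdac9. Some peaks at Hdac4 that the authors' annotation calls intergenic lie inside the longer GENCODE gene body, among them that at chr1:92183159-92183664 with C/EBPα scores of 15.42 and 15.6. Annotated repeats lay under 6 of 37 C/EBPα control peaks, or 16.2%, and 4 of 40 IRF8 control peaks, against 19.7% and 23.1% over the lists. After IL-4 they lay under 2 of 31 C/EBPα peaks, or 6.45%, and 3 of 47 IRF8 peaks, or 6.38%, against 19.1% and 22.0%.

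Motif matches were counted under the member peaks. In the central 200 bp, on either strand, the C/EBP match TTGCNNAA was found in 6 of 37 C/EBPα control peaks and 4 of 31 IL-4 peaks, or 16.2% and 12.9%, where 34.3% and 33.3% of all C/EBPα peaks held it. The ETS-IRF composite was in 7 of 40 IRF8 control peaks and 5 of 47 IL-4 peaks, or 17.5% and 10.6%, against 15.0% and 13.9%. The interferon response match was in 1 IRF8 peak of each condition, the intronic Hdac9 site, against 9.70% and 9.42% of the lists. AP-1 matches were in both JUNB control peaks, at Hdac7 and Kdm6b, where 55.3% of the list held one, and not in the JUNB peak at Hdac9. An interferon response match can overlap an ETS-IRF match. A match describes letters in the window and is not shown to be a bound site.

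The STAT6-type match was in 1 C/EBPα peak in control and 3 after IL-4 at these genes, or 2.70% and 9.68%, against 6.44% and 10.2% of the lists. The 3 were the Hdac9 peaks at 194 and 418 kb and the upstream Kdm6b peak. At 194 kb C/EBPα also had a control peak, whose window lay around a shifted centre and missed the match. That site therefore adds to the IL-4 count through the position of the window. For IRF8 the match was in 3 of 40 control peaks and 2 of 47 IL-4 peaks, or 7.50% and 4.26%, against 6.05% and 8.53% of the lists. The latter 2 were at Hdac9 (370 kb) and upstream of Kdm6b. At the Hdac9 sites at 194 and 418 kb, the window of the control IRF8 peak held the match. The window of the IL-4 IRF8 peak there, around a shifted centre, did not. Of the 5 C/EBPα and IRF8 peaks after IL-4 with the match, 1 was gained and 2 had a score at least 1.5 times higher. The pair at Kdm6b did not reach that difference. Over the whole series, 43.2% of C/EBPα and 42.4% of IRF8 IL-4 peaks with this match were gained, and 44.5% and 41.2% of the shared ones had a score at least 1.5 times higher. The 5 member peaks are too few to be set against those shares.

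The wider machinery was described by 31 further genes, namely other deacetylases and sirtuins, subunits of the NCOR, SIN3, NuRD and CoREST complexes, and histone methylation and acetylation enzymes. Together they had 288 peaks in 135 regions. Of the 31 genes, 21 had a C/EBPα peak, 25 an IRF8 peak and 6 a JUNB peak, and Hdac11, Sirt5, Mta1, Mbd3 and Kat2a had 0 in all 6 lists. Most regions were at Tbl1xr1 (47), which encodes a subunit of the NCOR complex, followed by the acetyltransferase gene Ep300 (11). Across these genes C/EBPα lost 17 of 55 peaks (30.9%) and gained 15 of 53 (28.3%), and IRF8 lost 25 of 84 (29.8%) and gained 21 of 80 (26.2%), beside backgrounds of 21.4%, 22.0%, 21.4% and 30.4%. Their shared peaks had a median log2 ratio of -0.17 for C/EBPα and -0.19 for IRF8, beside -0.0038 and 0.08 over all shared peaks. Tbl1xr1 alone had 111 of the 288 peaks, so it weighs heavily in these pooled values. Tbl1xr1 had 23 C/EBPα peaks in control and 18 after IL-4, and 33 and 31 IRF8 peaks.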

How the data were processed

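Wild-type BMDMs, either untreated or given 20 ng/ml IL-4 for 1 h, gave 1 peak list per factor and condition. As the submitters' processing notes and the methods state, alignment by the authors was to mm10 with BWA 0.7.10, and they called peaks with MACS2 2.0.10 under a q-value limit, removed ENCODE blacklist regions and annotated peaks with HOMER 4.2. SAMtools 0.1.19 is also listed. The peak score is as the authors deposited it, with no stated unit. Its values have the range of a −log10 q-value, which would rise with depth, but this was inferred from the values. The lowest scores of the lists, 1.3 to 1.76, lie below what the limit in the paper's methods would allow on that scale. The unit of the score thus stays uncertain. The distance to the start site, in bp, is as deposited by the authors. The control library and depth are not given in the sources used here, so the precision of a score is unknown.

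The 9 genes, the lists and the rules were chosen with earlier results of these data known. All members were described, and within each the region with the highest score of each factor and every gained or lost peak at or above its list median. Of the sequences shown, those at Hdac1, Hdac5 and Hdac9 and of the upstream Kdm6b site at 120.95 were picked after their values were seen.

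Control and IL-4 peaks were shared at an overlap of at least 1 bp and paired one to one, largest overlap first. A fold of 1.5 either way was the size rule. With 1 sample per group no test was run. Sequence was read from GRCm38.p6, the assembly behind mm10, and 0 peaks ended past a chromosome. On other sequences than the chromosomes lay 33 peaks, which had no motif search. Gene bodies are from GENCODE. Overlap and motif code was tested, with peaks of the C/EBPα control list set against a simulated second list, and 7 of 7 checks fell within the set limit. The tools were pysam 0.24.0, samtools 1.23.1, pandas 2.3.3 and scipy 1.17.1 under Python 3.11.15. Alternatives changed the overlap, the score minimum, the list length, the distance limit and the gene assignment, and left out Hdac4 or Hdac9. Some genes of the marker and further gene lists are not reported here by name.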

Additional observations from a re-analysis of the deposited data

Results flagged for a closer look

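The number of peaks at the 9 genes differed in direction between C/EBPα and IRF8. After IL-4 the C/EBPα list had 0.838 times as many member peaks as in control (31 against 37), and every count rests on 1 sample. The IRF8 list had 1.18 times as many (47 against 40). Over the whole lists the ratios were 1.01 for C/EBPα and 1.12 for IRF8, so the IRF8 value was close to that of its list and the C/EBPα value was below it. The difference between the factors was not tested, because each group had 1 sample. No group had the 4 samples needed to look for a sample far from the others.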

How the results depend on the processing

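With 1 sample per group, no replicate could be left out. No paired analysis was possible because the result comes from no test and each group had 1 sample. Of 56 values under an alternative, 43 stayed within 1.5 times the count, or within a 1.5-fold difference of the median ratio, 13 moved further and 0 medians of 1.5-fold size changed sign. A reciprocal overlap of 50% raised the gained C/EBPα peaks from 2 to 5. Keeping peaks with a score of at least 10 in each list gave C/EBPα 4 losses, IRF8 4 gains and 2 losses, and JUNB 0 of either. By construction this counts a shared peak whose partner scores under 10 as lost or gained. Of the peaks called so without it, 1 lost C/EBPα peak (17.99) and 1 gained (10.76) reached 10, and no IRF8 peak did. It also put the IRF8 median log2 ratio at -0.01. Rank matching left 1 lost JUNB peak, and a limit of 100000 bp to the start site left 0 gained JUNB peaks. Chosen after seeing the data, leaving out Hdac9 gave 1 gained and 3 lost C/EBPα peaks, 10 gained IRF8 peaks and 0 gained JUNB peaks, and leaving out Hdac4 gave 4 lost IRF8 peaks. Over all alternatives the C/EBPα median log2 ratio ranged from -0.23 to 0.22 and that of IRF8 from -0.01 to 0.30. Unknown depth limits every comparison of scores between lists.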
